A study of Mus musculus with 11 samples.

Results

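Among the livers of 6 mice lacking Gsr, 3 had a high and 3 a low level of Lcn2, the transcript of lipocalin 2, a secreted protein that binds bacterial siderophores. The series holds 11 livers in all, and the other 5, from wild-type (WT) mice, serve here as reference levels. The Gsr-null livers were parted by a measured value: a liver counted as high where its brightest Lcn2 probe set, judged by the mean of the 11 livers, exceeded 10 on the log2 scale. Gsr-null replicates 1, 3 and 6 are called the high livers and replicates 2, 4 and 5 the low livers. They are not groups of the study. Because the sets were chosen by a transcript measured on the same arrays, every difference between them is given as a description with no test.

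All 11 mice were males of the C57BL/6J strain, aged 15 to 20 weeks. They were either WT or Gsr-null, with no treatment named for either genotype, and the livers were taken between 2 and 4 in the afternoon. Gsr encodes glutathione reductase, which uses NADPH to return oxidised glutathione to its reduced form. The sources used here give neither the kind of Gsr allele nor the litter, cage or health of any mouse. Liver RNA was hybridised to single-colour Affymetrix arrays, and each value is the log2 signal of a probe set, so a difference of 1 is a fold of 2. The number of arrays limits the precision of every value.

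Lcn2 itself, which made the sets, was 13.03, 10.27 and 12.58 in Gsr-null replicates 1, 3 and 6 and 8.25, 5.90 and 7.50 in replicates 2, 4 and 5. The liver just inside the threshold was replicate 3 at 10.27, and the one just outside it was replicate 2 at 8.25. The WT livers lay between 3.53 and 5.79, below all 6 Gsr-null livers.

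As background, the liver answers injury or infection with the acute phase response. Cytokines such as interleukin 6 and interleukin 1 act on hepatocytes through STAT3, NF-kappa-B and C/EBP factors, which raise the transcription of secreted proteins such as the serum amyloids A and the orosomucoids. Hepcidin, the hormone encoded by Hamp that blocks iron export from cells, is also induced by interleukin 6, and in addition by iron through bone morphogenetic proteins. In the fasting liver the nuclear receptor PPAR-alpha drives fatty acid oxidation, and in the fed liver SREBP1c and ChREBP drive fatty acid synthesis.

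The promoters of the genes that set the high livers apart were read from RefSeq (GRCm38.p6), from 250 bases before to 50 bases after each start site. Those of 3 serum amyloid genes and of Orm2 are shown because these acute phase genes had the largest positive differences. The capitals mark the letters TTGCNNAA on either strand, a C/EBP-type motif.
Saa1: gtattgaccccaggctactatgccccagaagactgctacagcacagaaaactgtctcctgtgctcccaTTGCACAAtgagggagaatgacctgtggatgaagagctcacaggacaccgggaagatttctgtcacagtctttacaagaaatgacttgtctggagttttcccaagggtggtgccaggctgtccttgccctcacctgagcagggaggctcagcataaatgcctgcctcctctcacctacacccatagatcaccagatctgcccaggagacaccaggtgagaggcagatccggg
Saa2: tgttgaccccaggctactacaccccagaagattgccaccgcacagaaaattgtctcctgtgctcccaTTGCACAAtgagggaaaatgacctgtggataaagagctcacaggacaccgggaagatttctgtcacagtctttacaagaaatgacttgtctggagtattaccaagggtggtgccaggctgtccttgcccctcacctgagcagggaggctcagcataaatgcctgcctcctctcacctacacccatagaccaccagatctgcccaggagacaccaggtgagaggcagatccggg
Saa3: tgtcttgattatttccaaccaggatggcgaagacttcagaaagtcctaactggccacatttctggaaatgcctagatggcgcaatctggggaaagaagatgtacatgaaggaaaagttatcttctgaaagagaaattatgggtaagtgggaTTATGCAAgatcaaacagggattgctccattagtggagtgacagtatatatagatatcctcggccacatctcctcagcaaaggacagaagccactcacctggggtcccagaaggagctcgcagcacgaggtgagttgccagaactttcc
Orm2: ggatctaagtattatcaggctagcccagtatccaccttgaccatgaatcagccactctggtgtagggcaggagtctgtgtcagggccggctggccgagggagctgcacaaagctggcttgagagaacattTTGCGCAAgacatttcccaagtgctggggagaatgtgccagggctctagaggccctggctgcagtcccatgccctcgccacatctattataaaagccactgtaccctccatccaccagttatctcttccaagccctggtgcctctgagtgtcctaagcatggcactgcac
The windows lie at chr7:46742931-46743230 on the minus strand for Saa1, chr7:46751583-46751882 on the plus strand for Saa2, chr7:46715627-46715926 on the minus strand for Saa3 and chr4:63362199-63362498 on the plus strand for Orm2. Relative to the start site the capitals begin at -182 in Saa1, -183 in Saa2, -99 in Saa3 and -120 in Orm2. Orm3, the neighbour of Orm2, carried the same letters at -121. The windows of Saa1 and Saa2 shared 95.3% of aligned bases and those of Orm2 and Orm3 86.2%, so these are not separate instances, whereas Saa1 and Saa3 shared 49.4%. No TTGCNNAA stood in the windows of Apcs, Lrg1, Hamp or Hamp2.

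The motif TTGCNNAA, searched on both strands with overlaps allowed, was present in 7 of 18 higher genes that had a window (38.9%). Besides the Saa and Orm genes these were Slc3a1 and Rnase4. The 7 hold the alike pairs Saa1 with Saa2 and Orm2 with Orm3, and were picked from the same data, so the share is a description. The motif was present in 8 of 41 lower genes (19.5%), 535 of 4982 tested genes with a window (10.7%) and 10.8% of all 32851 windows. A STAT3-type motif, TTCCNGGAA, was found in 0 of 18 higher and 0 of 41 lower genes, 1.465% of tested genes and 1.15% of all windows. The NF-kappa-B motif was found in 0 of 18 higher genes, 1 of 41 lower genes, 0.462% of tested genes and 0.411% of all windows. These are letters in a short window and not measured binding.

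Several arrays stood apart in ways that crossed the sets. The control probe sets of Gapdh and Actb gave a 3' minus 5' difference, which reflects RNA integrity and labelling, of 0.572 to 0.703 in Gsr-null replicates 1, 2 and 3 and 1.20 to 1.25 in replicates 4, 5 and 6, so each range held high and low livers. Replicates 2 and 3 had a higher floor, with 5th percentiles of 1.79 and 1.76, while the remaining Gsr-null arrays had 1.54 to 1.62. Replicate 6 had the fewest probe sets above 4, with 9094. The low replicates 4 and 5 were the most alike of the Gsr-null pairs (r = 0.988 across probe sets), the high livers correlated with each other at 0.941 to 0.967, and the high with the low livers at 0.945 to 0.976. Apart from a fit with the 3' minus 5' ranges as a block, given at the end, the part of these array differences in the values below was not tested.

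The disrupted gene did not separate the sets. Gsr was 4.71, 5.09 and 4.83 in the high and 5.29, 4.94 and 5.09 in the low livers, against 6.62 to 6.93 in WT. The 2 sets overlapped, and both were below every WT liver.

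Of 9563 probe sets that exceeded a log2 value of 4 in 3 or more Gsr-null livers, 39 were at least 1 higher in the high livers with no overlap between the sets (0.408%), and 71 were at least 1 lower with no overlap (0.742%). By gene, with each gene taken as its brightest tested probe set, 28 of 6030 were higher (0.464%) and 51 lower (0.846%). Lcn2 is one of the 28, and the other 27 are described below. Counts over the whole array under other settings, here and in the closing section, still include Lcn2. Because Lcn2 chose the sets, nothing is read from these shares. The median difference over all tested genes was -0.11, with 2016 genes positive and 4014 negative. After quantile normalisation of the arrays the counted genes were 36 higher and 41 lower, so the share of higher genes among them was 46.8% in place of 35.4%. limma called 0 of 9563 probe sets at an adjusted p under 0.05 (0%), with 589 at an unadjusted p under 0.05. These counts are background and not a test of the sets, which were chosen on the same arrays. The standard errors below come from the limma fit. Without Gsr-null replicate 2, the low liver with the highest Lcn2, limma called 28.

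**Figure D1:**
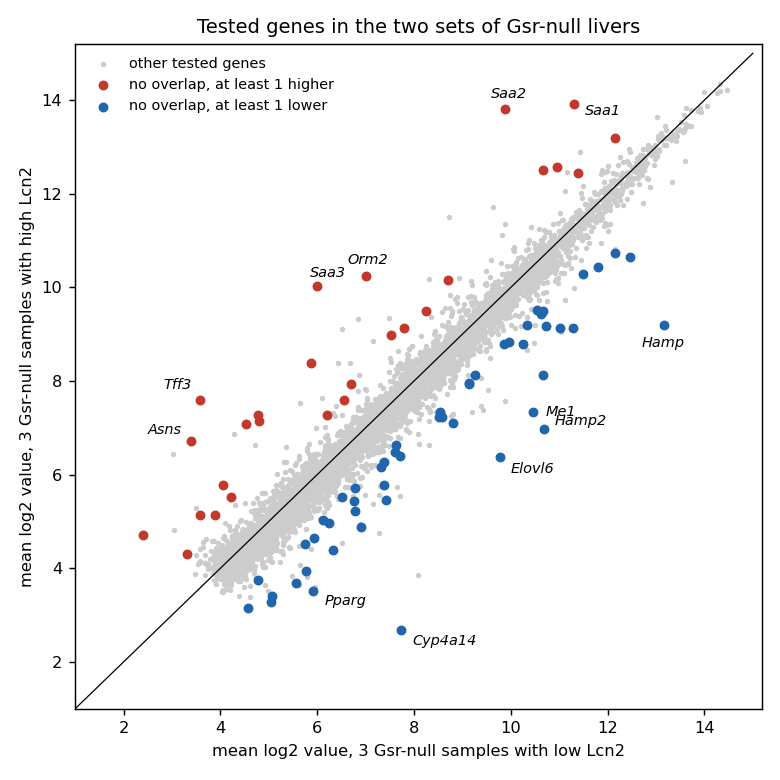
Mean log2 value of each tested gene in the 3 low (x axis) and 3 high livers (y axis), with Lcn2 left out; the line marks equal means. The 27 red genes had no overlap and were at least 1 higher, led by Saa3, Tff3 and Saa2 above the line, and the 51 blue genes were at least 1 lower, led by Cyp4a14 and Hamp below it.

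The acute phase proteins were the list with the most higher genes. Of 26 tested members (29 on the array), 9 were higher in the high livers and 1, Hamp, was lower. The shares over all tested genes were 0.464% higher and 0.846% lower. In the list 24 had a positive difference and the median was 0.63. Over all genes 2016 of 6030 were positive and the median was -0.11. The list was drawn up with Saa and Orm results of these livers known, so its counts are not independent evidence. The 9 were Saa1, Saa2, Saa3, Orm2, Orm3, Apcs, Lrg1, Fgl1 and Lbp.

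The serum amyloids A are apolipoproteins that rise steeply in inflammation. Saa3 was 11.38, 8.91 and 9.80 in high replicates 1, 3 and 6 and 7.49, 5.28 and 5.20 in low replicates 2, 4 and 5, against 5.61 to 7.49 in WT. The low livers were within or under the WT range, and the high livers above it. The difference was 4.04 (SE 0.808, n = 3 and 3), a 16.4-fold higher geometric mean; on the log2 scale it was 3.37 without replicate 1 and 4.79 without replicate 2. Saa2 was 14.55, 12.88 and 14.02 in the high and 11.45, 8.92 and 9.27 in the low livers, with WT at 6.82 to 10.61. It differed by 3.94 (SE 0.728; 4.72 without replicate 2), with replicate 2 the only low liver above the WT range. Saa1 was 14.11, 13.67 and 13.99 in the high and 12.92, 10.41 and 10.61 in the low livers, with WT at 7.96 to 12.04, and differed by 2.61 (SE 0.639; 3.41 without replicate 2). The high livers were close together in Saa1, near the top of the array's scale, and replicate 2 stood above the other low livers. The Saa1 and Saa2 probe sets used here can bind both transcripts and may not be separate measurements. Another tested Saa1 probe set, whose identifier does not mark it as binding several transcripts, differed by 2.39 without overlap. Saa4, the constitutively made member of the family, differed by 0.58, with no overlap.

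The orosomucoids are plasma glycoproteins that bind drugs and lipids. Orm2 was 11.84, 8.78 and 10.10 in the high and 7.14, 6.37 and 7.51 in the low livers. In WT it was 4.67 to 5.30. All 6 Gsr-null livers exceeded every WT liver, and the high exceeded the low livers by 3.23 (SE 0.739), or by 2.43 without replicate 1 and 3.96 without replicate 3. Orm3 was 6.22, 4.27 and 4.91 in the high and 3.30, 3.77 and 3.69 in the low livers, with WT at 2.62 to 3.02, so its low and WT livers were all below the filter level of 4 and it passed the filter through the high livers alone. Its difference of 1.55 was 1.00 without replicate 1. Orm1 differed by 0.61 without overlap.

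Further secreted proteins differed in the same direction with smaller ranges. Apcs, serum amyloid P, was 12.98, 12.09 and 12.45 against 10.42, 10.26 and 11.30, and WT spanned 9.84 to 11.83. Fgl1, a fibrinogen-like protein, was 13.07, 12.33 and 12.32 against 11.70, 10.43 and 10.74. Lbp, which hands lipopolysaccharide to CD14, was 10.65, 9.35 and 10.46 against 9.19, 8.35 and 8.57. Lrg1, a leucine-rich glycoprotein, was 12.22 to 12.77 in the high livers and at most 11.91 in the low livers. In Apcs, Fgl1, Lbp and Lrg1 the high livers were above every WT liver (11.82 at most in Fgl1, 9.24 in Lbp and 12.21 in Lrg1).

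Other classical members were not counted. Serpina3n (0.80), Steap4 (0.65) and Orm1 were without overlap but under the size counted here. Hp, haptoglobin, differed by 0.26, the fibrinogen chains Fga, Fgb and Fgg by 0.19, 0.22 and 0.15, Crp by 0.11 and Hpx, hemopexin, by -0.04, and in each of these 6 the sets overlapped. The negative acute phase proteins, such as albumin and transthyretin, had 0 of 13 tested members counted either way, with a median of 0.02. Among all tested genes 0.464% were higher and 0.846% lower, with a median of -0.11.

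**Figure D2:**
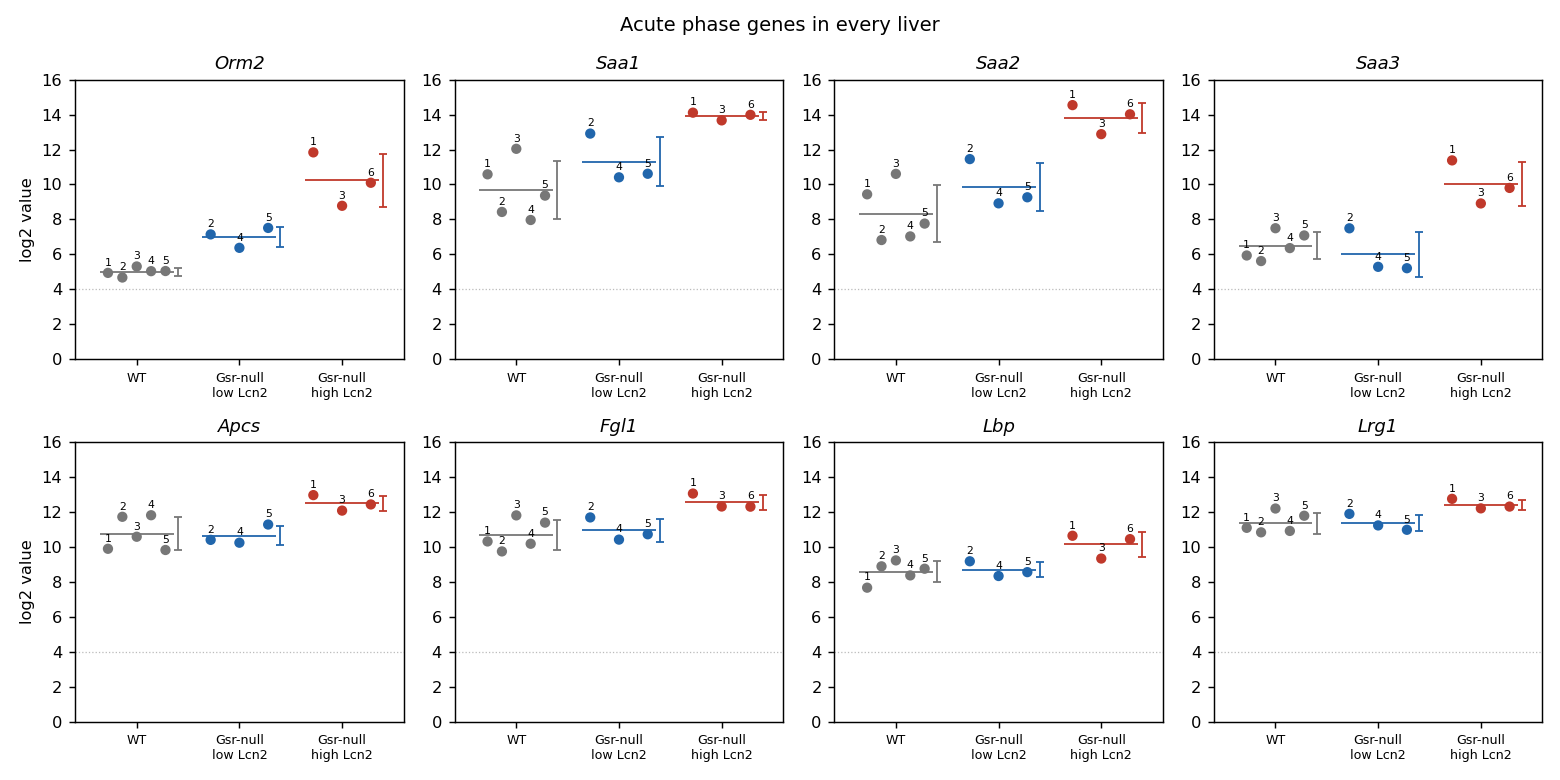
Log2 values of 8 acute phase genes in each liver, with replicate numbers beside the points; lines are means, bars on the right of each set are 1 SD, and the dotted line is the filter level of 4. In all 8 the 3 high livers lie above the 3 low livers, and replicate 2 is the highest of the low livers in Saa1, Saa2, Saa3, Fgl1, Lbp and Lrg1.

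The signalling upstream of these proteins was looked at in the same way. Of 24 tested genes of IL-6, STAT3 and NF-kappa-B signalling, 0 were higher and 0 lower, with a median of 0.04. With 0.464% of all tested genes higher and 0.846% lower, nothing is read from a count of 0 in so short a list. Socs3, the feedback inhibitor induced by STAT3, was 5.49, 5.43 and 5.19 in the high and 5.43, 5.42 and 4.74 in the low livers. Stat3 differed by 0.21. Nfkbiz, an inducible co-regulator of NF-kappa-B, differed by 0.98 and Nfkbia, its inhibitor, by -0.44, both without overlap. Nfkbiz was counted as higher on median-centred and on quantile normalised arrays. Il6, Il1b and Tnf were below 4 in every liver. In complement, 0 of 22 tested genes were counted although 19 were positive, with a median of 0.41, or 0.18 without replicate 1 and 0.25 without replicate 4. Among all tested genes 2016 of 6030 were positive, and their median was -0.11. C6 and C8b, parts of the membrane attack complex, differed by 1.88 and 1.47, with overlap. Low replicates 4 and 5 were the low ones there: C6 was 6.95 and 7.72 in them and at least 9.43 in every other liver, WT included.

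Markers of immune cells were given the same look. None of 13 neutrophil markers on the array passed the filter, and 2 were above 4 in any Gsr-null liver. S100a8 and S100a9, the neutrophil calgranulins, were 6.63 and 6.50 in high replicate 1, whereas in high replicates 3 and 6 S100a8 was 3.63 and 3.26 and S100a9 was 3.13 and 3.49. The summed linear signal of the 13 markers was 244 in replicate 1, 76.5 in replicate 3, 77.0 in replicate 6 and 60.8 to 74.8 in the low livers, with WT at 61.1 to 68.8. The part of neutrophils in the higher genes was not tested. Across all tested genes 0.464% were higher, 0.846% lower and 2016 of 6030 positive. Of 15 tested markers of monocytes, Kupffer cells and macrophages, 0 were counted, 13 were positive and the median was 0.35. That median was 0.05 without replicate 1, 0.13 without replicate 4 and 0.61 without replicate 6. Their summed signal was 5384, 3741 and 2596 in the high and 3418, 2244 and 3046 in the low livers, with WT at 2778 to 4369, so it overlapped. None of 14 T and NK cell markers was above 4 in any Gsr-null liver. In bulk liver, fewer cells of a type and less RNA per cell cannot be told apart.

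Outside the acute phase list the higher genes came from many functions. Tff3, a secreted trefoil peptide, was 9.53, 8.13 and 5.15 in the high and 4.54, 2.66 and 3.51 in the low livers, a difference of 4.04 (SE 1.08) that was 3.07 without replicate 1 and 5.26 without replicate 6. WT livers were as scattered, from 3.16 to 9.15, so a high Tff3 was not limited to the high livers. Asns, asparagine synthetase, a target of the integrated stress response, was 7.71, 6.44 and 6.03 in the high and 5.20, 2.23 and 2.78 in the low livers, with WT at 2.26 to 6.99. It differed by 3.32 (SE 0.811), or 2.73 without replicate 4 and 4.22 without replicate 2, and lay within the WT range except in replicate 1 and, just under it, replicate 4.

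Creld2, an endoplasmic reticulum chaperone gene, was the other higher member of the list for the unfolded protein and integrated stress responses. It was 8.27, 10.12 and 8.54 against 8.13, 7.35 and 7.07, a difference of 1.46 that was 0.89 without replicate 3. Of that list's 25 tested genes 2 were higher and 0 lower, against 0.464% higher over all genes. The list's median was 0.25, or 0.49 without replicate 2 and 0.14 without replicate 4, against -0.11 over all genes. Sdf2l1 (1.71), Manf (0.87) and Hspa5 (0.52), chaperones of the same compartment, overlapped between the sets. Of 30 tested secretory pathway genes 0 were counted, against 0.464% higher and 0.846% lower over all genes.

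Tspan13, a tetraspanin, was 7.66, 6.78 and 6.80 in the high, 3.60, 4.20 and 5.78 in the low and 3.06 to 3.49 in the WT livers. Atp11a, a phospholipid flippase, was 7.39, 7.05 and 7.38 against 5.38, 4.74 and 4.24, with WT at 3.99 to 5.42. Slc3a1, the heavy subunit of a cystine and dibasic amino acid transporter, was 8.66, 8.53 and 7.97 against 7.11, 5.07 and 5.42. Its WT values, 6.59 to 8.09, lay between, so low replicates 4 and 5 were below WT and high replicates 1 and 3 above. Scara5, a ferritin scavenger receptor, differed by 2.34, Fmn2, a formin, by 2.31 and Armcx3 by 1.74. In Scara5 low replicate 2, at 6.60, was close to high replicate 6, at 6.69, and WT spanned 2.11 to 6.50. In Armcx3 low replicates 4 and 5, at 3.40 and 3.81, were below the WT range of 4.80 to 5.94. High replicates 3 and 6, at 5.39 and 5.32, were within it. Fmn2 was below 4 in all low livers and passed the filter through the high livers alone.

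Across the 27 higher genes, replicate 1 was the highest in 22 and replicate 4 the lowest in 19. Without replicate 1, 21 of the 27 differed by at least 1. Replicate 2 was the low liver nearest to the high ones in 20, and replicate 3 the high liver nearest to the low ones in 17. In 13 genes all 3 high livers were above every WT liver, and in 3 all low livers were too. Of the 27, 17 were above 4 in all 6 livers and 3 passed the filter through the high livers alone. Within replicates 4, 5 and 6, the range with the larger 3' minus 5' difference, 26 of the 27 differed by at least 1, and within replicates 1, 2 and 3, 14 did.

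Hepcidin went the other way from the acute phase proteins it is often grouped with. Hamp was 11.34, 3.63 and 12.63 in the high livers and 13.14, 13.09 and 13.25 in the low livers, with WT at 13.07 to 13.25. The low livers lay within the WT range, and every high liver lay under it, replicate 3 by far the most. The difference was -3.96 (SE 2.15), and without replicate 3 it was -1.18. Hamp2, its paralog, was 8.15, 4.11 and 8.70 against 10.28, 10.90 and 10.89, with WT at 9.17 to 11.79, a difference of -3.70 (SE 1.13) that was -2.26 without replicate 3. The Hamp2 probe set can bind related transcripts, so the pair may not be separate measurements.

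Id1, a target of bone morphogenetic protein signalling, was 2.99, 3.07 and 3.43 in the high and 5.27, 4.14 and 4.29 in the low livers. All 3 high values were below 4, so Id1 passed the filter through the low livers alone, and below the WT range of 3.75 to 5.40. Id3, of the same family and named after its values were seen, was 6.93, 7.52 and 7.22 against 9.47, 8.04 and 8.05, with WT at 8.31 to 9.37. Smad7 (-0.57), also a target of that pathway, overlapped, and Bmp6 was below 4 in every liver. These were measured in whole liver and say nothing of protein or of iron stores.

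Of 16 tested genes of iron and heme handling, 0 were higher and 3 lower (Hamp, Hamp2 and Id1), against 0.846% lower over all genes. The list's median was -0.31, against -0.11 over all genes. Tfrc, the transferrin receptor, overlapped: it was 7.98, 10.26 and 7.72 in the high and 8.67, 7.52 and 6.85 in the low livers. Its highest value was in replicate 3, where Hamp and Hamp2 were lowest. The summed linear signal of the 6 erythroid markers on the array was also highest there, at 1287, against 468 to 848 in the other Gsr-null livers and 414 to 597 in WT. Most of it was Alas2, the erythroid enzyme of heme synthesis, at 10.29 in replicate 3, 8.77 to 9.66 in the other Gsr-null livers and 8.58 to 9.13 in WT, while the remaining markers but Klf1 were below 4 in every Gsr-null liver. The part of erythroid cells in the iron values was not tested. Slc40a1, the iron exporter ferroportin, differed by -0.35 and Tfr2 by 0.21, both with overlap, and Hfe by -0.65 without.

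**Figure D3:**
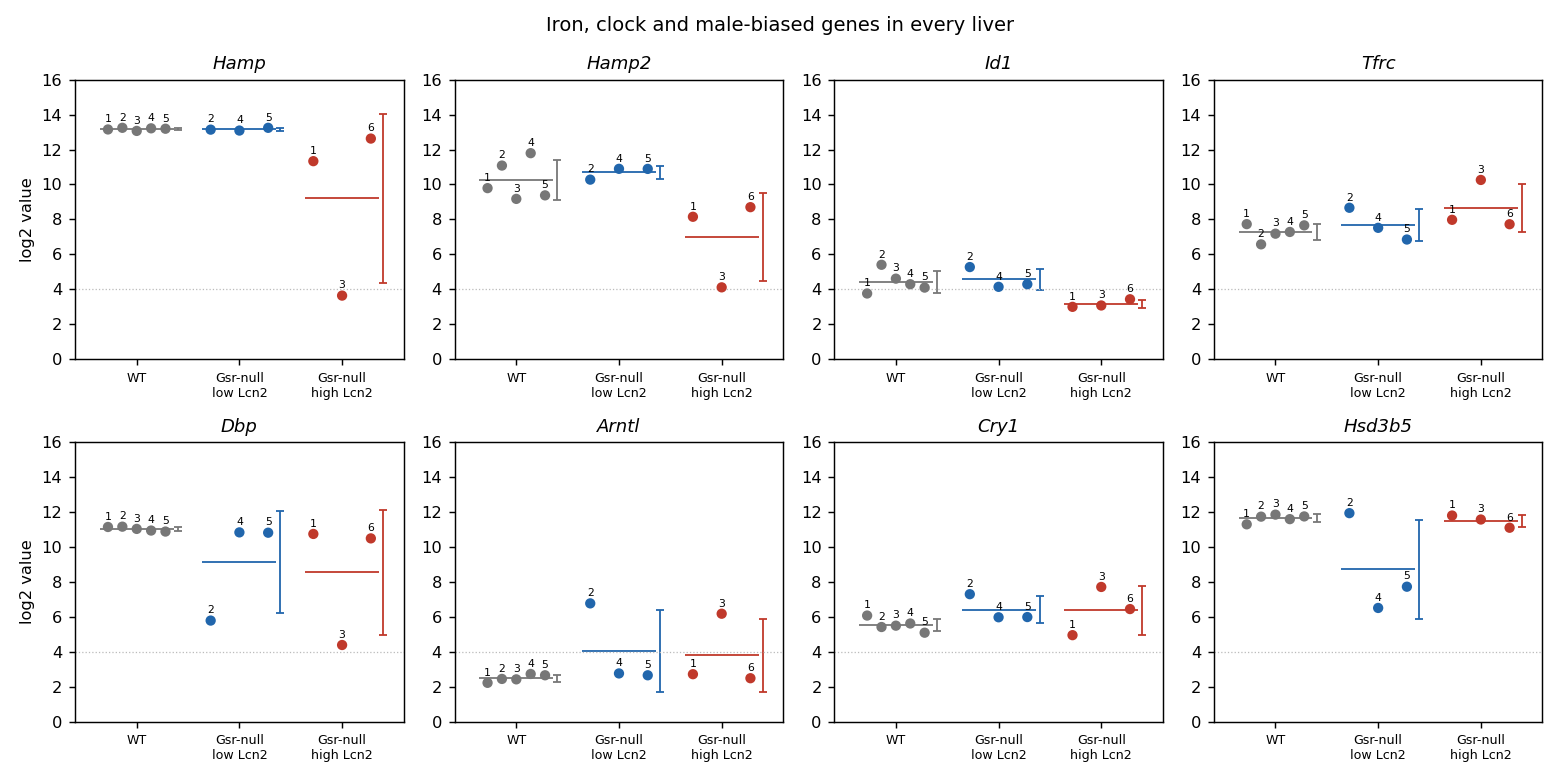
Log2 values of hepcidin and iron genes (Hamp, Hamp2, Id1, Tfrc), clock genes (Dbp, Arntl, Cry1) and Hsd3b5 in each liver, with replicate numbers, means, 1 SD bars and the filter level of 4 as a dotted line. The low livers sit with WT for Hamp while replicate 3 is at 3.63; for Dbp and Arntl replicates 2 and 3 stand apart from all others, and for Hsd3b5 replicates 4 and 5 do.

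The clock genes, named after their values were seen, parted the Gsr-null livers along another line than Lcn2. Dbp, an output gene of the clock, was 4.40 in high replicate 3 and 5.79 in low replicate 2, while the remaining 4 Gsr-null livers had 10.50 to 10.85 and WT livers 10.89 to 11.17. Arntl, the core activator BMAL1, was 6.19 and 6.78 in the same pair and 2.77 or less in every other liver. Nfil3 was 7.53 and 7.98 in them and 6.42 or less in the other Gsr-null livers. Of 13 tested clock genes 0 were counted between the Lcn2 sets, against 0.464% higher and 0.846% lower over all genes. Each set held 1 of replicates 2 and 3. These are also the 2 arrays with the higher floor, and the part of that floor was not tested.

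Hsd3b5, a steroid dehydrogenase of male mouse liver, parted the low set instead. It was 6.52 and 7.74 in low replicates 4 and 5 and 11.11 to 11.95 in the other 9 livers. Bcl6, a repressor in growth hormone signalling, was 5.04 and 5.27 in replicates 4 and 5 and 7.77 to 9.89 in the other Gsr-null livers, and Cyp7b1, an oxysterol hydroxylase, was 10.47 and 10.89 against 12.72 to 13.04. Of 19 tested genes of the growth hormone and IGF axis 0 were counted, and 1, Susd4, was higher on median-centred and on quantile normalised arrays. Between the Lcn2 sets 0.464% of all tested genes were higher and 0.846% lower.

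Fatty acid oxidation and other PPAR-alpha targets held 5 of the lower genes. Of 30 tested members (37 on the array), 0 were higher and 5 were lower (Cyp4a14, Crat, Pdk4, Plin2 and Ehhadh). The lower share over all genes was 0.846%. A negative difference was found in 29 of the 30, as in 4014 of the 6030 genes in all. Cyp4a14 and Pdk4 were below 4 in all high livers and passed the filter through the low livers alone. The median was -0.67, against -0.11 over all genes, and -0.65 on median-centred and quantile normalised arrays. Cpt1a, at 0.34, was the 1 positive member.

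Cyp4a14, a fatty acid omega-hydroxylase, showed the largest difference of any counted gene. It was 2.55, 2.00 and 3.49 in the high livers, all below the filter level, and 4.87, 10.95 and 7.39 in the low livers. WT livers ranged from 4.76 to 9.42, so the high livers were under all of WT and the low livers spread over and beyond it. The difference was -5.05 (SE 1.40), 33.2-fold between geometric means, and on the log2 scale it was -3.45 without replicate 4 and -6.49 without replicate 2. As the high values lie near the floor of the array, the size of this fold depends on that floor.

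Pdk4, the kinase that restrains pyruvate oxidation, was 2.70, 3.50 and 3.63 against 4.95, 5.29 and 4.93, with WT at 2.58 to 3.48. Here the low livers stood apart from WT, and the high livers were within or just above it. Plin2, a lipid droplet coat protein, was 10.40, 11.30 and 10.52 against 11.70, 12.56 and 12.17. Crat, carnitine acetyltransferase, was 4.07, 4.66 and 4.47 against 4.76, 7.19 and 7.03. Low replicate 2 was close to high replicate 3 in Crat, and the larger values were those of replicates 4 and 5. Ehhadh, the peroxisomal bifunctional enzyme, was 9.07, 9.49 and 9.72 against 9.95, 11.04 and 10.87, with all high livers under the WT range of 10.06 to 10.78.

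Vnn1, pantetheinase, a strong PPAR-alpha target, overlapped because of low replicate 2. It was 3.15, 4.17 and 4.26 in the high livers and 4.12 in replicate 2, against 10.55 and 9.60 in replicates 4 and 5 and 8.84 to 10.05 in WT. Replicate 2 thus sided with the high livers. Acot1 (-2.16), Cd36 (-1.92) and Pex11a (-1.68) also overlapped.

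Fatty acid and triglyceride synthesis held 4 of the lower genes. Over all tested genes 0.846% were lower, 4014 of 6030 were negative and the median was -0.11. Of 18 tested members of the list (23 on the array), 0 were higher and 4 were lower (Elovl6, Me1, Pparg and Acly). All 18 had a negative difference (17 after quantile normalisation), with a median of -0.88. On median-centred arrays 3 were counted, without Acly, and on quantile normalised arrays 3, without Pparg. Without replicate 2 that median was -1.35. Elovl6, the elongase of palmitate, was 6.57, 7.22 and 5.37 in the high and 7.68, 11.32 and 10.32 in the low livers, with WT at 7.38 to 8.99. It was below WT in the high livers and above WT in replicates 4 and 5. Me1, cytosolic malic enzyme and a source of NADPH, was 7.42, 7.34 and 7.26 against 9.06, 11.45 and 10.86, with WT at 8.55 to 10.94. Its high livers were nearly equal and under every WT liver, and the difference was -3.12 (SE 0.569), or -3.82 without replicate 2.

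Pparg, a nuclear receptor of fat storage, was 3.28, 3.24 and 4.05 against 4.19, 6.89 and 6.68, with WT at 4.05 to 6.21. Acly, ATP citrate lyase, was 10.22, 10.10 and 10.54 against 10.65, 12.06 and 11.78, with the high livers within the WT range of 9.91 to 11.02. Other tested Acly probe sets differed by -1.37 without overlap and by -1.62 and -0.56 with overlap. Fasn, fatty acid synthase, was 8.97, 10.13 and 8.04 against 10.09, 11.83 and 11.22. It overlapped through low replicate 2 and high replicate 3, as did Acacb (-1.89). Gsr-null replicates 4 and 5 also held the lipid droplet genes Cidea and Cidec, which did not pass the filter and were named after their values were seen. Cidec was 8.46 and 8.04 in these livers and 2.46 to 3.17 in the other 9, WT included. Mogat1, a monoacylglycerol acyltransferase, was 7.31 and 5.79 in them and 4.06 or less elsewhere.

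**Figure D4:**
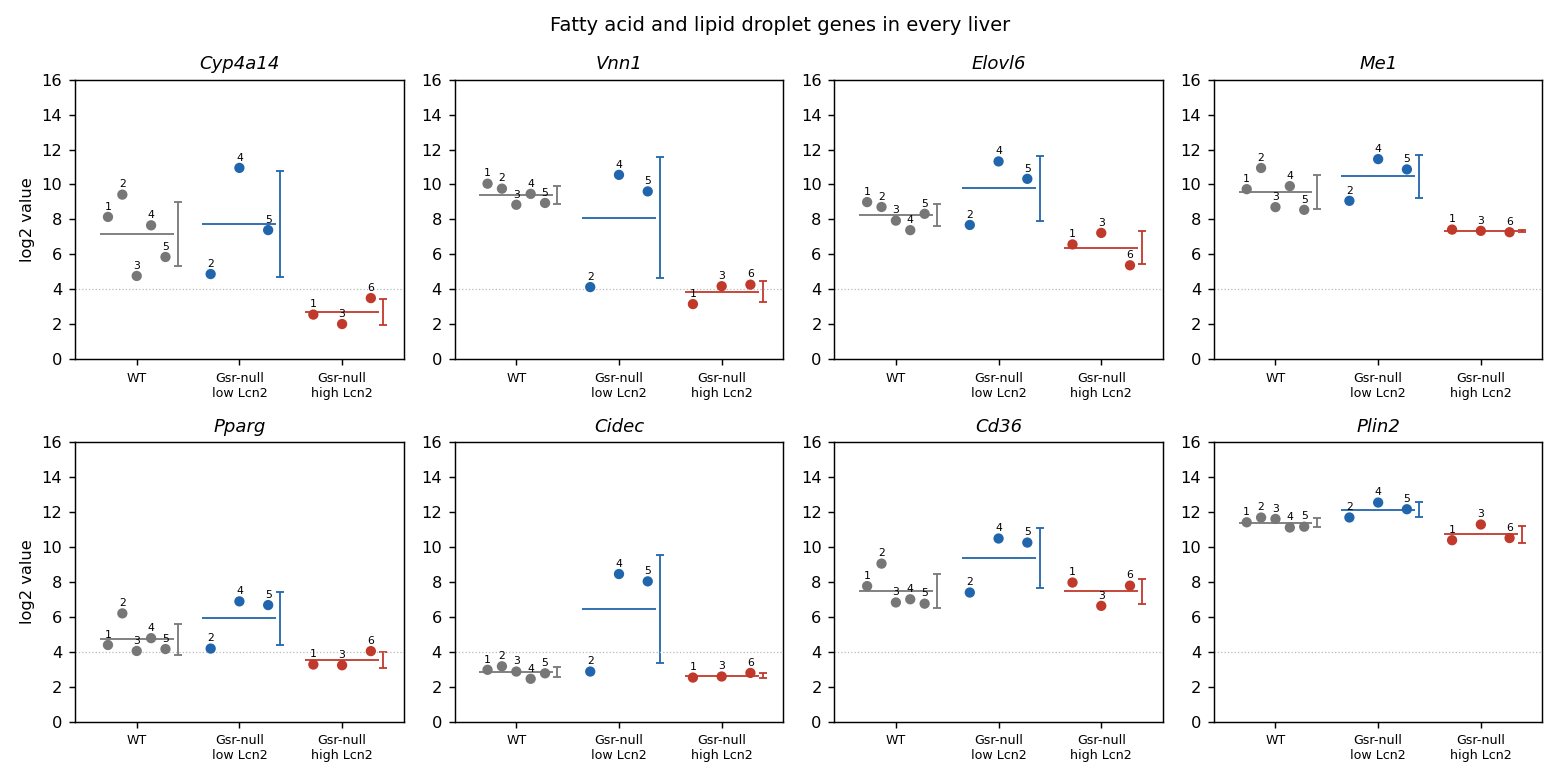
Log2 values of 8 genes of fatty acid oxidation, synthesis and lipid droplets in each liver, with replicate numbers, means, 1 SD bars and the filter level of 4 as a dotted line. The high livers lie below every WT liver in Cyp4a14, Vnn1, Elovl6 and Me1, replicates 4 and 5 carry the highest values of Cidec, Cd36, Elovl6 and Pparg, and replicate 2 sits with the high livers in Vnn1.

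Other metabolic genes were among the lower ones. G0s2, an inhibitor of triglyceride lipase, was 5.97, 8.19 and 10.21 in the high and 10.55, 10.58 and 10.85 in the low livers, a difference of -2.54 (SE 0.949) that was -1.46 without replicate 1. WT livers had 8.04 to 10.29, so the low livers were above WT and only high replicate 1 was below. Apoa4, an apolipoprotein, was 9.81 to 11.16 in the high livers and 11.21, 13.12 and 13.04 in the low livers, with replicate 2 close to the high livers. Its WT values were 8.83 to 10.79, so all low livers and high replicates 3 and 6 were above WT. Retsat, retinol saturase, was 8.65, 9.31 and 9.47 against 10.55, 11.39 and 11.14, with the high livers under the WT range of 10.47 to 11.27. Pklr, liver pyruvate kinase, differed by -1.70 and was the 1 counted gene of 18 of gluconeogenesis, glycogen and glycolysis. Over all genes 0.846% were lower. In that list 13 of the 18 were negative, against 4014 of 6030 over all genes.

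Of 28 tested NRF2 targets, which serve the response to electrophiles, 0 were higher and 3 were lower (Me1, Gstm2 and Aox1). Among the 28, 26 were negative and the median was -0.49. Over all tested genes 0.846% were lower, 4014 of 6030 were negative and the median was -0.11. Me1 stands in the synthesis list too. Gstm2, a glutathione S-transferase, was 8.30, 8.98 and 9.24 against 9.38, 10.13 and 10.40, with WT at 8.19 to 9.13. On median-centred arrays 2 of the 28 were counted, and after quantile normalisation 1, Me1. Of 27 tested genes of the glutathione and thioredoxin systems, 0 were counted either way, and the median was -0.22.

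Single members of further lists were lower. Cyp2b10, a CAR target, was 3.59, 3.39 and 4.11 against 5.26, 5.79 and 5.62, with a WT range of 2.77 to 7.65 that spanned both sets. Slco1a4 and Abcb4, transporters of bile constituents, differed by -1.59 and -1.15. F12, coagulation factor XII, differed by -1.18. Cxcl9, a chemokine induced by interferon gamma, was 3.30, 3.92 and 3.01 against 5.28, 4.94 and 5.00, with WT at 5.16 to 5.95, so the high livers were under WT and under the filter level, which Cxcl9 passed through the low livers alone. Klf10, a transcription factor induced by TGF-beta, was 5.62, 4.70 and 6.03 against 6.94, 7.75 and 7.58. Tubb2a, a tubulin (-2.16), and Anxa2, an annexin (-2.03), were the other large differences, and all 3 low livers exceeded WT in both. In Tubb2a high replicate 3, at 10.37, also exceeded every WT liver (9.31 at most). Another tested Tubb2a probe set differed by -0.83, with overlap.

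Across the 51 lower genes, replicate 4 was the highest in 33, replicate 1 the lowest in 23, and replicate 2 the low liver nearest to the high ones in 39. In 23 genes all 3 high livers were below every WT liver, and in 12 all 3 low livers were above every WT liver. Of the 51, 41 were above 4 in all 6 livers and 4 passed the filter through the low livers alone. Of 17 other tested probe sets of these genes, 8 were counted too, and of 6 other tested probe sets of the higher genes, 4 were. Within replicates 4, 5 and 6, 40 of the 51 differed by at least 1, and within replicates 1, 2 and 3, 23 did. In 22 of the 51 lower and 10 of the 27 higher genes, replicate 2 was nearer to the mean of the high livers than to that of replicates 4 and 5.

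**Figure D5:**
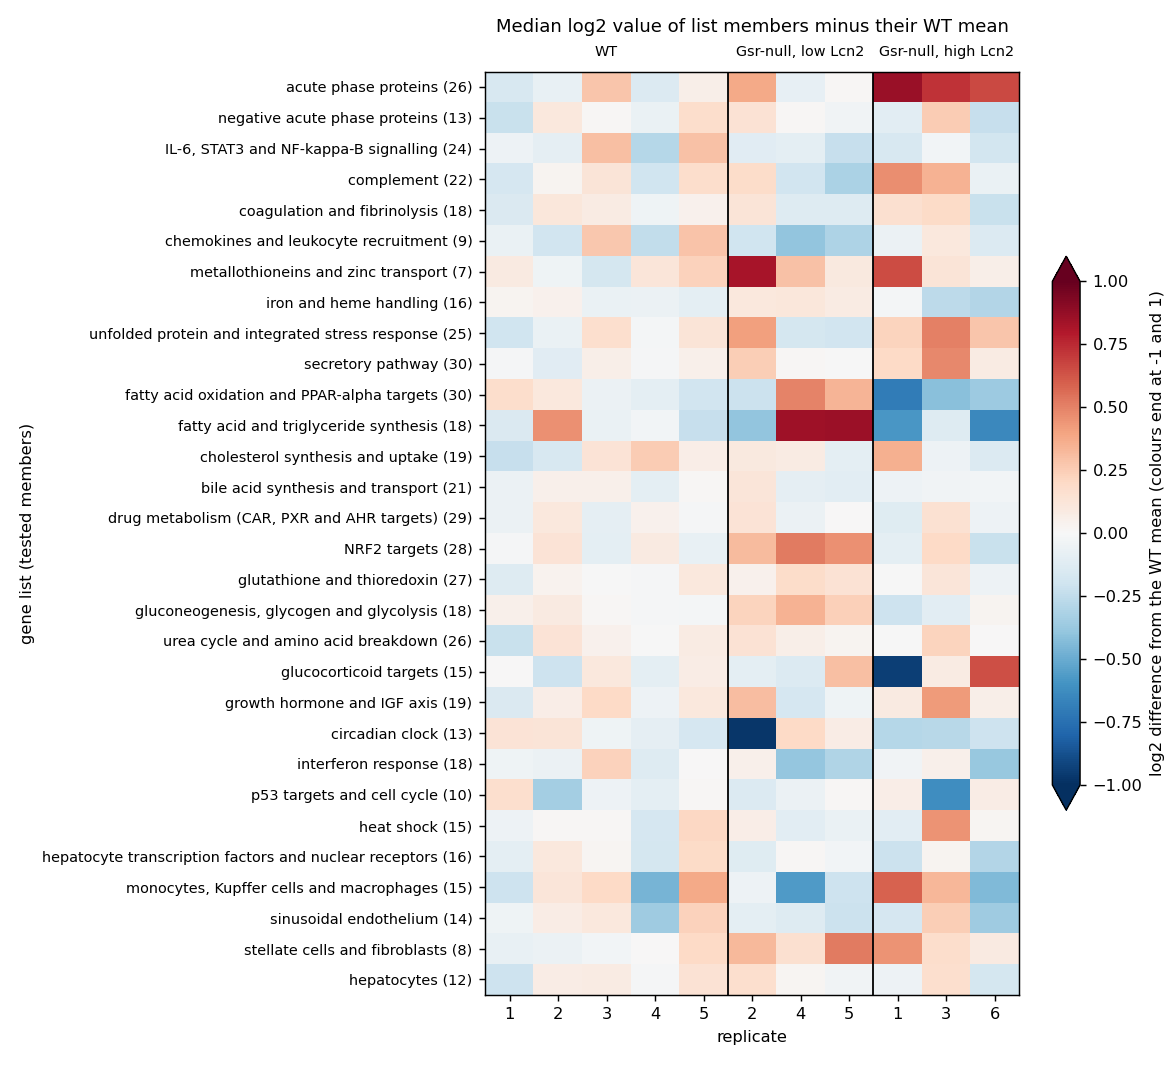
Median over the tested members of each gene list of the log2 value minus the WT mean, for each liver (columns) and list (rows, tested members in parentheses; lists with at least 7); red is above and blue below WT. The acute phase row is 0.87, 0.72 and 0.66 in high replicates 1, 3 and 6 and 0.38, -0.08 and 0.01 in low replicates 2, 4 and 5, and the fatty acid synthesis row is 0.85 and 0.86 in low replicates 4 and 5 but -0.39 in replicate 2.

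Seen liver by liver, the lists gave an order rather than 2 tight sets. The acute phase median stood 0.87, 0.72 and 0.66 above the WT mean in replicates 1, 3 and 6, 0.38 above it in replicate 2 and between -0.08 and 0.01 in replicates 4 and 5. The fatty acid oxidation median was -0.70, -0.42 and -0.36 in the high livers, -0.22 in replicate 2, and 0.50 and 0.34 in replicates 4 and 5. Fatty acid synthesis was -0.59, -0.13 and -0.65 in the high livers and -0.39 in replicate 2, which overlapped, and 0.85 and 0.86 in replicates 4 and 5. Replicate 2 lay between the high livers and replicates 4 and 5 in the acute phase and oxidation medians and within the high livers in the synthesis median. Single genes varied, since in Pdk4 and G0s2 it was close to replicates 4 and 5.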

How the data were processed

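Total RNA of 11 livers was labelled with biotin and hybridised to Affymetrix arrays, per the labels' protocols. The deposited values are log2 signals that the authors made with GCRMA, per the submitters' processing notes, which name no version. GCRMA corrects background by probe sequence and normalises between arrays, and it compresses low values towards a floor. The labels call the samples biological replicates, and scan dates and batches were not analysed here.

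The table held 22690 probe sets, of which 64 controls were left out. The platform annotation gave 1 gene symbol to 20380 of the remaining 22626, several to 691 and none to 1555, and only the first kind was named. Identifiers with an s, x or a before the final _at mark probe sets that may bind more than 1 transcript; among the genes named, Acly, Anxa2, Apoa4, Arntl, Asns, C8b, Cd36, Cpt1a, Cry1, Cyp2b10, Dbp, Hamp2, Hspa5, Id1, Ighm, Il1b, Lcn2, Pparg, S100a8, Saa1, Saa2, Saa3, Socs3, Steap4, Tfr2, Tubb2a and Alas2 were measured by such a probe set. Of several tested probe sets of a gene, the one with the largest mean over the 11 samples stood for it. Probe sets above 4 in at least 3 of the 6 Gsr-null samples were kept. A probe set or gene was counted as higher or lower where the 3 high and 3 low samples did not overlap and their means differed by at least 1. Standard errors came from lmFit and eBayes of limma 3.58.1 in R 4.3.3, with Benjamini-Hochberg adjustment, tested on simulated data; tables and figures were made in Python 3.11.15 with matplotlib 3.10.9. With 3 samples a set, no replicate number links the sets.

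The members, 26 pathway and 10 marker lists, and how genes were picked for naming, were all chosen with earlier results of these data known. The rule took Gsr, the markers Orm2, Saa1, Saa2 and Saa3, the 15 largest differences each way without overlap, and of each list up to 4 counted members or else the member with the largest difference. Promoter windows came from RefSeq (GRCm38.p6). Alternatives covered filters, scaling, size of difference, probe set summary, variance models, a block for the 3' to 5' ranges and the omission of samples.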

Additional observations from a re-analysis of the deposited data

Results flagged for a closer look

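Among 134 sets of values within a genotype, 5 had 1 liver far from the others, and chance would give 6.7. Hamp was 3.63 in Gsr-null replicate 3, against 11.3 to 13.2 in the other Gsr-null livers. Foxa1, a pioneer transcription factor of the liver, was 7.25 in the same liver, against 5.11 to 5.50 in the other Gsr-null livers. WT spanned 5.35 to 7.33, so for Foxa1 replicate 3 lay within the WT range. Ighm, the heavy chain of immunoglobulin M, was 9.23 in Gsr-null replicate 4, against 2.87 to 4.32. Spcs2, a subunit of the signal peptidase, was 9.06 in WT replicate 1, against 9.51 to 9.67 in the other WT livers. The number of probe sets above 4 was 9094 in Gsr-null replicate 6, against 9459 to 9551 in the other Gsr-null arrays.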

How the results depend on the processing

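No paired analysis was possible because both sets lie within 1 genotype and share no replicate numbers. With Lcn2 included, as in all counts of this section, the main counts were 39 probe sets and 28 genes higher. They were 71 probe sets and 51 genes lower. Requiring a value above 4 in all 6 livers gave 23 probe sets and 18 genes higher, and a filter at 6 gave 23 probe sets higher. Counting any difference without overlap gave 198 and 839 probe sets and 115 and 582 genes, higher and lower; a minimum of 0.5 gave 77 and 330 probe sets and 50 and 232 genes, and a minimum of 2 gave 15 and 16 probe sets and 12 and 9 genes. Leaving out 1 liver gave 39 to 189 higher and 63 to 266 lower probe sets, 26 to 82 genes higher and 47 to 188 lower, and 0 to 28 limma calls; the counts of genes moved by over 1.5 times without replicates 2 (82 and 188), 3 (50 and 98) or 6 (70 and 85). Without replicates 2 and 3 there were 217 and 339 probe sets, 117 and 240 genes and 39 limma calls. Fewer samples overlap less by construction. No filter and median-centred or quantile normalised arrays left all counts within 1.5 times, as did the mean of probe sets for the counts of genes. limma called 0 without a filter, with either stricter filter, on either scaling, with the block, with trend and robust options and at an adjusted p under 0.1. The block made some differences smaller, such as Tff3 (3.18 in place of 4.04) and Asns (2.70 in place of 3.32). Others grew, such as Tspan13 (2.71 in place of 2.55). All 640 alternative values of 64 named genes and 267 of 279 list medians moved by less than 1 SD between livers. This is a loose measure where 1 outlying liver widens the SD. In Hamp, whose difference depended largely on replicate 3, the SD of the high livers was 4.86. Signals near the floor of the array limit what the folds of low genes can show.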
